A study of Mus musculus with 27 samples.

Results

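Mixtures with a stated 75 cone and 125 starburst cells were compared with mixtures of a stated 50 cone and 150 starburst cells, each sorted from adult mouse retina as 200 cells in all. The arrays were chosen by their titles, 3 for each mixture, and make up 6 of the 27 arrays of the series. The stated cone share went from 25 to 37.5%, and the question was whether cone genes followed that order and what else differed. In their means they did not follow it. Most cone genes read lower in the 75-cone mixture than in the 50-cone mixture, while starburst genes read nearly the same, and 0 of 12441 genes passed limma's adjusted threshold in either direction.

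The series tested how faithfully RNA from small numbers of retinal cells was amplified, with 9 groups of 3 arrays. Cones carried GFP in the Chrnb4-GFP line, and starburst cells carried RFP switched on by Cre in ChAT-Cre × Rosa26-LSL-RFP mice. Retinas of both lines (6 starburst-line and 2 cone-line retinas) made up a pool, and the titration mixtures, the 50-cone one among them, were sorted from such a pool; this was repeated with other mice. The 75-cone mixture belongs to another set, called X in the design, whose pools are not stated. Set and stated cone share therefore cannot be told apart in this comparison. Both groups shared a background that mixed C57BL/6J with an FVB/N-Swiss Webster hybrid. According to the labels, the hybrid mice of the repository carried a recessive mutation that makes photoreceptors degenerate, and second-generation backcross animals were used. Each mixed array held cells of both lines, and a difference between lines moves with the cell type. Precision is limited by there being 3 arrays a group.

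Cones are the photoreceptors of daylight and colour vision. Light activates a cone opsin, the opsin activates the cone transducin, and transducin releases a phosphodiesterase that breaks down cyclic GMP, which closes the cation channels of the outer segment. Arrestin, a kinase and a complex of regulators switch the cascade off, and calcium-sensing proteins that act on guanylate cyclase restore cyclic GMP. Starburst cells are the cholinergic amacrine interneurons of the retina, known for their part in direction selectivity. They release acetylcholine and GABA and express the vesicular acetylcholine transporter.

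The promoters of the 3 marker genes are shown because the cone genes were read as a group and many photoreceptor genes are controlled by Crx and Otx2, homeodomain factors that bind the letters TAATCC. Each run is the 250 bases before the RefSeq transcription start in GRCm38.p6, read 5′ to 3′ on the gene's own strand, with TAATCC or its reverse complement GGATTA in capitals. Opn1mw encodes the medium-wave cone opsin and its promoter lies at chrX:74127216-74127465 on the plus strand. Guca1a encodes a guanylate cyclase activating protein, with its promoter at chr17:47400607-47400856 on the minus strand. Gnat2 encodes the alpha subunit of cone transducin, with its promoter at chr3:108092816-108093065 on the plus strand.
Opn1mw: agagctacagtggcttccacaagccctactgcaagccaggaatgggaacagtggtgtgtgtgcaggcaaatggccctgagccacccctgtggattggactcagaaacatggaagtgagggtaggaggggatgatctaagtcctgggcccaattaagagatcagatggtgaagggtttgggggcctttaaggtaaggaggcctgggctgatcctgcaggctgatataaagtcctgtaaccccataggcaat
Guca1a: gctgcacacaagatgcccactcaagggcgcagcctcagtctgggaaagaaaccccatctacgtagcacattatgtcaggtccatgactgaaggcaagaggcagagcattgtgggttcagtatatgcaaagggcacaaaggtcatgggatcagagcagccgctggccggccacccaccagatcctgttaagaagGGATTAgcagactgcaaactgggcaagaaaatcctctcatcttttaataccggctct
Gnat2: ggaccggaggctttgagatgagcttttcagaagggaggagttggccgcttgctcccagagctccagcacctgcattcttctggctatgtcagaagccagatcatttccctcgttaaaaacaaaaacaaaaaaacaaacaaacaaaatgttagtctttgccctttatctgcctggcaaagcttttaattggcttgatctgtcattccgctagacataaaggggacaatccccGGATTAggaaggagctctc
The match lay 57 bases before the start in Guca1a and 19 bases before it in Gnat2, and the Opn1mw window held none. Over the 12 tested genes of cone phototransduction with a promoter in the table, 4 held a match (33.3%). The share was 22.2% of 81 cone-high genes and 2.92% of 137 starburst-high genes with a promoter, against 7.21% of all 27025 genes with a promoter in the table. These are matches of letters on either strand, not binding sites.

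Values below are log2 RMA values. A difference is the 75-cone mean minus the 50-cone mean, given with its standard error (SE) from 1 limma model of the 27 arrays (n = 3 in each group), and adjusted p-values are Benjamini-Hochberg values over 12441 genes. A stated difference is what the pure starburst and pure cone means of a gene give when mixed on the linear scale in the stated cell numbers. It is 0.585 for a gene found in cones alone and -0.263 for a gene found in starburst cells alone. Across all tested genes the median difference was -0.03, and 56.1% of genes had a difference below 0. At an unadjusted p under 0.05 limma gave 520 lower genes (4.18%) and 280 higher genes (2.25%). Groups did not overlap, with the 75-cone arrays lower, in 8.15% of all tested genes, and with the 75-cone arrays higher in 4.92%.

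Replicates of a mixture correlated with each other at 0.967 to 0.974 across probe sets in the 50-cone group and at 0.957 to 0.970 in the 75-cone group, and 0 pairs were identical. The third array labelled 75-cone stood apart in its cone genes. Its summed linear level over 10 cone markers was 1066, inside the range of the pure starburst arrays (511 to 1133), while the highest 75-cone array reached 4434 and the 50-cone arrays 5511 to 6571. That sum leans on Guca1a, which is bright on pure starburst arrays as well. Gene by gene, 6 of the 10 cone markers and 38 of the 101 genes high in pure cones (37.6%, against 21.6% of all tested genes) read above every pure starburst array on the third array, compared with 64 and 69 of the 101 on the first and the second. Its starburst genes did not stand apart. The main differences in cone genes between the mixtures are therefore given with and without this array. The labels call the arrays biological replicates, but separate pools are stated for the 50-cone arrays and not for the 75-cone arrays. The spread between arrays may therefore in part be technical. Limma's p-values and intervals rest on a spread per gene pooled over all 9 groups, not on these 6 arrays alone. In Opn1mw the SE was 0.59 here and between the pure groups. The SD of Opn1mw was 0.14 among the 50-cone arrays and 1.02 among the 75-cone arrays. Arrays numbered 3 of the 150-cone, 157-cone, 183-cone and pure cone groups also read low in cone genes and add to the pooled spread.

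Among the opsins, Opn1mw read 9.96, 9.72 and 9.73 on the 50-cone arrays and 9.57, 9.73 and 7.89 on the 75-cone arrays. The first and second 75-cone arrays lay at or just below the 50-cone level, and the third lay well below it, though still above the pure starburst arrays (3.93, 6.04 and 3.94). The difference was -0.74 ± 0.59 (limma adjusted p = 0.902), with a 95% interval of -1.96 to 0.48 that left out the stated difference of 0.56. Without the third 75-cone array the difference was -0.15. The short-wave opsin Opn1sw read 9.86, 9.36 and 9.25 in the 50-cone mixture and 8.53, 8.57 and 4.98 in the 75-cone mixture. Here all 75-cone arrays lay below all 50-cone arrays, and the third lay within the range of the pure starburst arrays, which read 4.67, 5.68 and 2.82. Its difference was -2.13 ± 0.95 (adjusted p = 0.730), or -0.94 without the third array.

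Cone transducin genes went the same way. Gnat2 read 9.58, 9.48 and 9.20 in the 50-cone mixture and 8.54, 8.93 and 5.67 in the 75-cone mixture, so the groups did not overlap. The difference was -1.71 ± 0.83 (adjusted p = 0.772; stated 0.56), and -0.69 without the third array. The beta subunit Gnb3 read 8.34, 8.11 and 7.68 against 7.23, 7.79 and 5.47, with the second 75-cone array inside the 50-cone range. The gamma subunit Gngt2 read 6.14, 5.74 and 5.75 against 5.42, 4.84 and 3.43, with no overlap. Its difference was -1.32 ± 0.62 (adjusted p = 0.764), or -0.75 without the third array.

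The cone phosphodiesterase genes were again lowest on the third 75-cone array. Its catalytic subunit Pde6c read 6.62, 6.45 and 6.24 in the 50-cone mixture and 6.28, 6.00 and 3.43 in the 75-cone mixture. Its inhibitory subunit Pde6h read 10.17, 10.17 and 9.90 against 9.99, 9.12 and 7.74. In both genes the first 75-cone array lay within the 50-cone range and the differences were -1.20 ± 0.90 and -1.13 ± 0.59. Leaving out the third 75-cone array gave -0.30 for Pde6c and -0.53 for Pde6h. Pure starburst arrays read 4.76 to 5.55 for Pde6h, below the third 75-cone array. Of the channel subunits, Cngb3 read 3.94, 3.97 and 3.55 against 3.54, 3.30 and 2.33. Cnga3 read below 2.83, the level set for dim genes, on all 6 arrays.

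Among the genes that end the response or sense calcium, the cone arrestin Arr3 read 8.82, 8.67 and 9.04 in the 50-cone mixture and 8.25, 8.46 and 5.75 in the 75-cone mixture. Its groups did not overlap, and its difference was -1.35 ± 0.79 (adjusted p = 0.851), or -0.48 without the third array. Guca1a read 10.80, 10.52 and 10.69 against 10.38, 10.33 and 8.67, again with no overlap. Its difference of -0.87 ± 0.33 had an unadjusted p of 0.016 and an adjusted p of 0.620 in limma, and it was -0.31 without the third array. Pure starburst arrays read 8.93, 9.71 and 8.69 for Guca1a, so the third 75-cone array sat at their low end. Recoverin, Rcvrn, a calcium sensor that acts on the opsin kinase, read 7.71, 7.37 and 7.61 against 7.72, 7.42 and 6.37. There the first and second arrays of both mixtures were alike and the third 75-cone array alone was lower; without it the difference was 0.01.

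**Figure D1:**
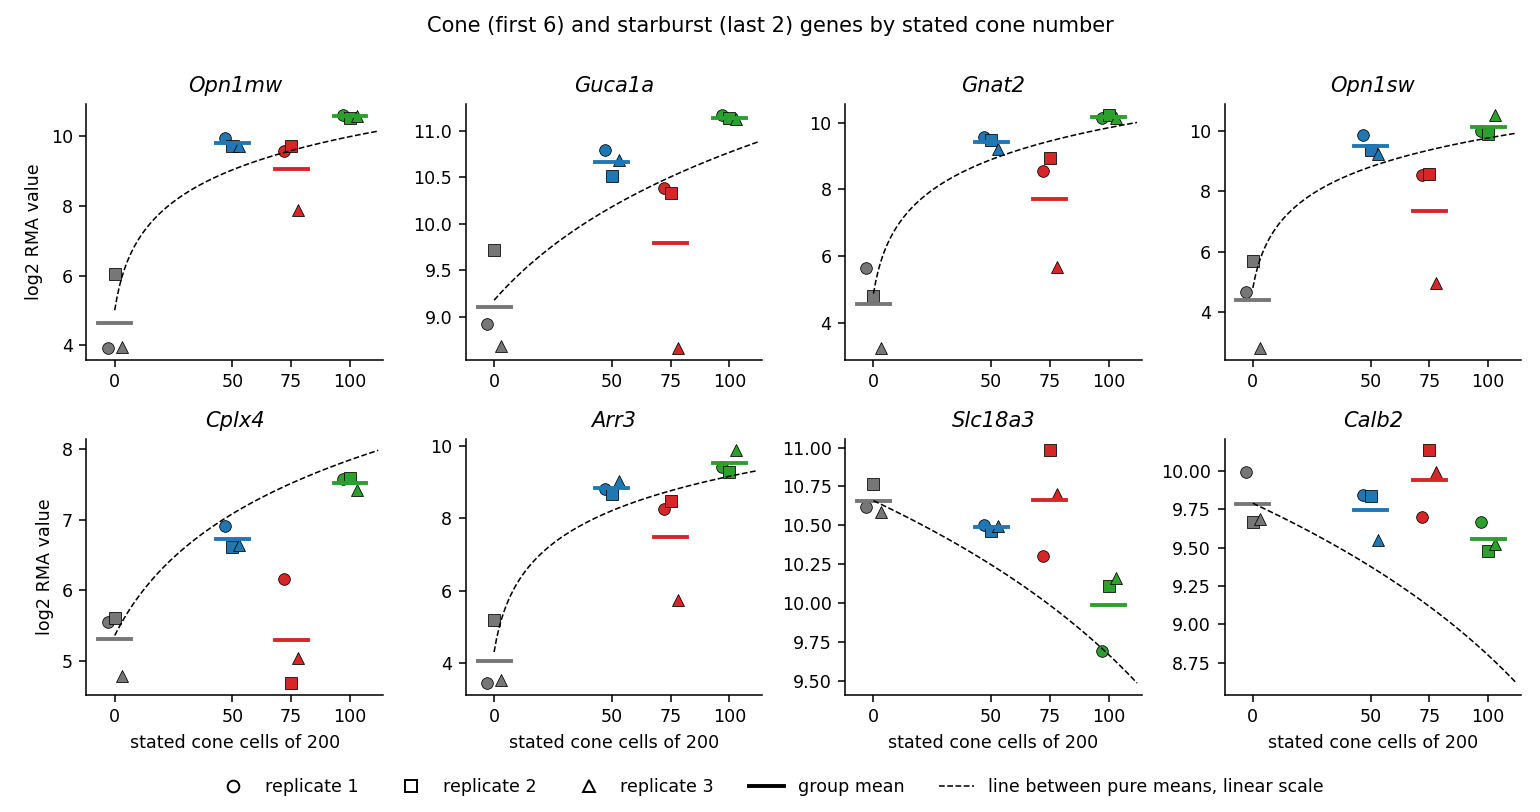
Log2 RMA value (vertical axis) of 6 cone genes and 2 starburst genes against the stated number of cones among 200 cells (0, 50, 75 and 100), with points for the 3 arrays of a group, bars for group means and a dashed line for the stated mixture of the pure means. In each of the 6 cone genes the 75-cone mean lies below the 50-cone mean and the line, and in Slc18a3 and Calb2 it lies above both.

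Of the 21 listed genes of cone phototransduction, 19 passed the filter on dim genes, while Guca1b was not analysed here and Gucy2f read too low. Of these 19, 0 were called, and 15 had a difference below 0, with a median of -0.74 beside a stated median of 0.40 and a median of -0.03 over all genes. The groups did not overlap in 6 genes with the 75-cone arrays lower (31.6%, against 8.15% of all tested genes). In 1 gene they did not overlap with those arrays higher, against 4.92% of all tested genes. It was Gucy2e, the photoreceptor guanylate cyclase, which read 2.50 to 2.58 against 2.62 to 2.91. The third 75-cone array was the lowest of its group in 16 of the 19 genes, against 34.2% of all tested genes. Set against the 50-cone mean, the 3 arrays of the 75-cone mixture had list medians of -0.17, -0.25 and -1.49. Leaving the third out gave a list median of -0.27, with 14 genes below 0 (54.9% of all tested genes were below 0) and 7 without overlap on the lower side (36.8%, against 13% of all tested genes). The median SD of these genes was 0.16 among the 50-cone arrays and 0.71 among the 75-cone arrays, and it was larger in the 75-cone group for 17 of 19 (53.3% of all tested genes). The 4 members above 0 were Gucy2e, Cnga3, Kcnv2, a potassium channel subunit of photoreceptors, and Rgs9bp, the membrane anchor of the transducin-regulating complex; all had differences of at most 0.18. Close to 0 as well were the opsin kinase Grk1 (-0.18), Rgs9 (-0.11) and Gnb5 (-0.26), which speed up transducin shutoff, and the cone cation exchanger Slc24a2 (-0.11). Most of these genes were dim, and a difference near 0 says little there. Slc24a2 and Cnga3 read below 2.83 on all 6 arrays, and Grk1, Rgs9, Kcnv2 and Gucy2e read at most 3.24. Gnb5 was bright, at 7.23 to 7.96.

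Other cone genes were lower too. Of 14 tested genes of cone identity and other cone genes, 13 had a difference below 0, with a median of -0.56 (-0.30 without the third array). In 8 the groups did not overlap (57.1%, against 8.15% of all tested genes). Kcne2, a potassium channel accessory subunit, read 7.37, 7.31 and 6.97 against 6.71, 6.65 and 4.45. The acyltransferase Mogat1 read 7.36, 6.84 and 6.22 against 5.30, 6.66 and 4.35, with its second 75-cone array inside the 50-cone range. The phosphatase Ppm1j read 6.33, 6.92 and 6.49 against 6.16, 5.57 and 4.49, and the peptide precursor Apela 6.03, 5.50 and 5.74 against 5.03, 3.28 and 5.33. In Apela the second array, not the third, was lowest. Chrnb4, the gene whose line marked the cones, read 3.51, 3.53 and 3.37 against 3.07, 3.05 and 2.75. Its difference was -0.51 ± 0.44 (limma adjusted p = 0.914), or -0.41 without the third array. Arc, the immediate early gene that marks a separate amacrine group of the series, read 3.24, 3.23 and 3.39 against 3.09, 3.25 and 3.43.

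Genes that rods and cones share, and genes of rods, were also lower. Of 23 tested genes common to photoreceptors, 21 had a difference below 0, and the median was -0.39 (-0.28 without the third array). In 11 the groups did not overlap (47.8%, against 8.15% of all tested genes). The chaperone Aipl1, which photoreceptors need to make phosphodiesterase, read 7.2, 6.29 and 6.73 in the 50-cone mixture and 6.01, 5.91 and 4.85 in the 75-cone mixture. The retinoid-binding protein Rbp3 read 6.47, 6.48 and 6.16 against 5.77, 6.42 and 4.82. All of the 15 tested rod genes had a difference below 0, with a median of -0.52, and -0.47 without the third array. In 6 there was no overlap (40%, against 8.15% of all tested genes). The rod phosphodiesterase subunit Pde6b read 5.96, 5.39 and 6.00 against 4.21, 3.57 and 4.82, the rod channel subunit Cnga1 4.83, 5.23 and 5.72 against 3.91, 3.61 and 4.89, and rod transducin Gnat1 7.98, 7.77 and 8.19 against 6.70, 7.46 and 7.28. In these rod genes the third 75-cone array was not the lowest. None of the rod genes passed the adjusted threshold in limma. At an unadjusted p under 0.05, 6 of the 15 were lower, against 4.18% of all tested genes.

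Rods were not a sorted cell type. Summed over the 5 rod markers with values, the linear level was 958 to 1213 on the 50-cone arrays and 610 to 762 on the 75-cone arrays. Pure starburst arrays summed to 479 to 955 and pure cone arrays to 2515 to 3989. The rod level, like the cone genes, was lower in the 75-cone mixture, but it did not follow them throughout. In Pde6b and Cnga1 the third 75-cone array, lowest in cone genes, was the highest of its group, while in Gnat1 it was not. Against the 100-cone mixture the list median was -0.31 for rod genes and -1.35 for cone phototransduction. Pde6b read 5.07, 5.63 and 4.86 on the pure starburst arrays, above every 75-cone array. The part of the rod level in the cone gene difference was not tested. In RNA from whole tubes, fewer cells of a type and less RNA per cell cannot be told apart.

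The smallest p of all genes belonged to Cplx4, a complexin of photoreceptor ribbon synapses, where it controls vesicle release. It read 6.91, 6.61 and 6.65 in the 50-cone mixture and 6.16, 4.69 and 5.04 in the 75-cone mixture. The groups did not overlap, and the second and the third 75-cone array lay within or below the range of pure starburst arrays (5.56, 5.60 and 4.78). The difference was -1.43 ± 0.29, with an unadjusted p of 6.2e-05 and a limma adjusted p of 0.388. Without the third 75-cone array it was -1.30. Without the first, which lay nearest the 50-cone arrays, it was -1.86, with a limma adjusted p of 0.0042. The related complexin Cplx3 read 7.24, 7.26 and 7.0 against 6.50, 6.70 and 5.67. Over the 15 tested genes of the ribbon synapse, 10 were below 0, with a median of -0.18. The 75-cone arrays were lower without overlap in 2 (13.3%, against 8.15% of all tested genes).

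Starburst genes, whose stated cell number went from 150 to 125, differed little. The vesicular acetylcholine transporter Slc18a3 read 10.50, 10.46 and 10.50 in the 50-cone mixture and 10.30, 10.98 and 10.70 in the 75-cone mixture. The first 75-cone array was below and the other two above the 50-cone arrays, and the difference was 0.18 ± 0.23 (limma adjusted p = 0.964). Its 95% interval of -0.30 to 0.65 held the stated difference of -0.26. Calretinin, Calb2, a calcium-binding protein of amacrine cells, read 9.84, 9.84 and 9.55 against 9.70, 10.13 and 9.99. For Calb2 the 95% interval of -0.20 to 0.60 left out the stated difference of -0.26. Slc10a4, a transporter of cholinergic vesicles, read 7.76, 8.33 and 8.29 against 8.21, 8.39 and 8.23. Choline acetyltransferase, Chat, which drove the Cre, read low, at 4.40, 4.57 and 4.16 against 3.75, 4.36 and 3.68, with a difference of -0.45 ± 0.22 (adjusted p = 0.783).

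Of 13 tested cholinergic and starburst genes, 5 had a difference below 0, with a median of 0.09 beside a stated median of -0.11. In 2 the groups had no overlap with the 75-cone arrays lower (15.4%, against 8.15% of all tested genes). Kcnc2, a voltage-gated potassium channel, was among the lower ones at 6.07, 5.57 and 5.29 against 4.68, 4.88 and 5.09, with a difference of -0.76 ± 0.23 (limma adjusted p = 0.492). The transcription factor Isl1 read 8.77, 8.84 and 9.0 against 8.73, 8.74 and 8.30. Other starburst genes with a high contrast between the pure arrays stayed close to 0 in difference: Gsto1, a glutathione transferase, at -0.09 ± 0.22, Cmtm8 at 0.03 ± 0.27, the secreted IGF-binding protein Igfbp7 at 0.19 ± 0.53, and Kcnmb4, a subunit of the large calcium-activated potassium channel, at 0.40 ± 0.30.

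**Figure D2:**
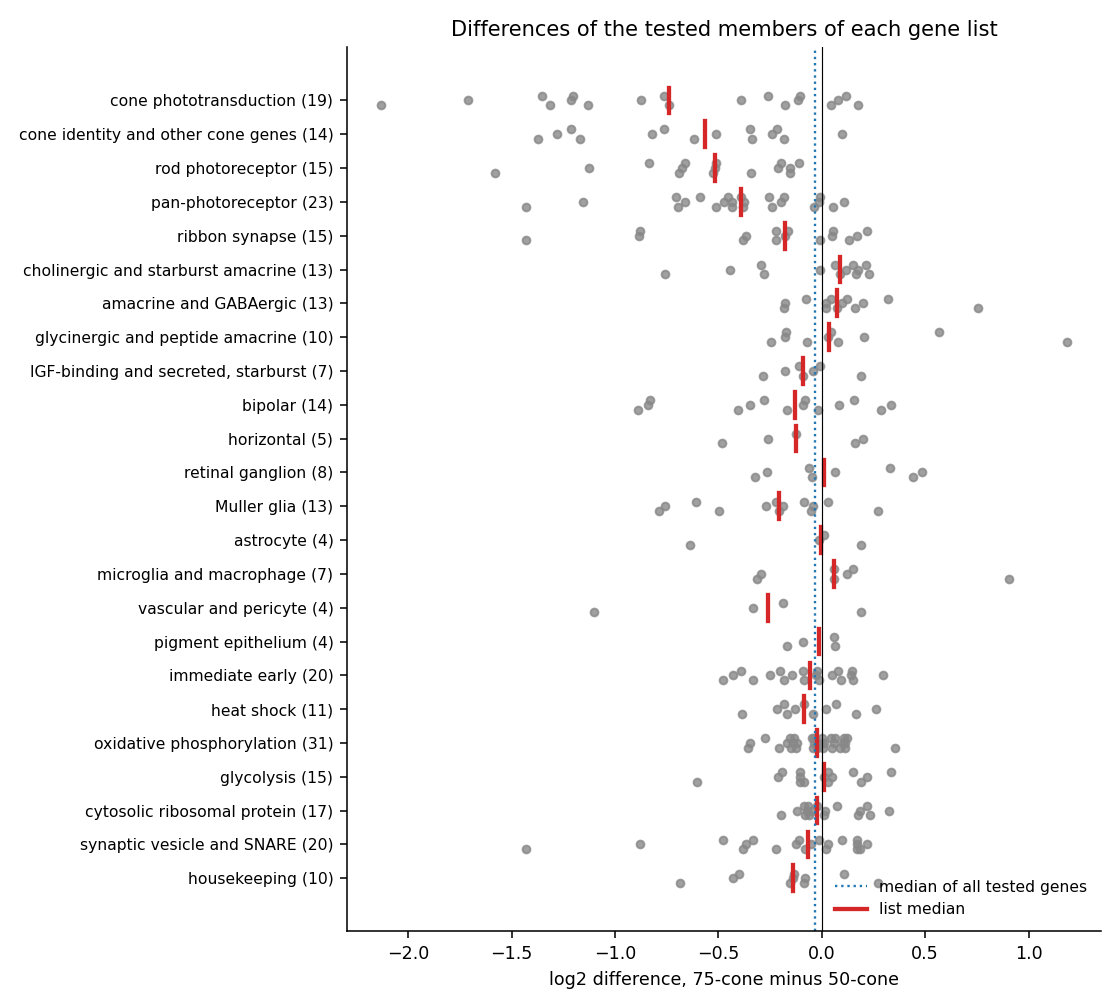
Log2 difference, 75-cone minus 50-cone (horizontal axis), of the tested members of each gene list with at least 4 tested genes, as points, with the list median as a bar and the median of all tested genes as a dotted line. The photoreceptor lists at the top have medians of -0.74, -0.56, -0.52 and -0.39, and the starburst list has a median of 0.09.

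Other cells of the retina were followed by their own genes. Of 14 bipolar genes 10 were below 0, with a median of -0.13, and 5 had no overlap (35.7%, against 8.15% of all tested genes). Car8, a carbonic anhydrase related protein, read 4.35, 3.74 and 4.08 against 3.67, 2.74 and 3.09. Pcp2, a marker of rod and ON bipolar cells, read 4.29, 3.54 and 5.61 against 3.83, 3.86 and 3.23. Of 13 genes of Muller glia 11 were below 0, with a median of -0.21, and 2 had no overlap (15.4%, against 8.15% of all tested genes). The lipoprotein gene Clu read 7.47, 7.22 and 8.10 against 7.0, 7.1 and 6.33. Summed linear levels of the Muller markers were 346 to 714 and 252 to 340, and those of the bipolar markers 35.1 to 76.1 and 33.3 to 37.4. Slc1a3 and Aqp4 of the Muller markers and Grm6, Trpm1, Vsx1 and Prkca of the bipolar markers were not above 2.83 in the mixtures. The Muller sums were lower in the 75-cone mixture without overlap, while the bipolar sums overlapped. At an unadjusted limma p under 0.05, 0 genes of the Muller list and 1 of the bipolar list were lower, against 4.18% of all tested genes. The part of these cells in the cone gene difference was not tested, nor was the part of cones in the lower bipolar and Muller values.

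General amacrine and GABA genes, which starburst cells also express, showed no such shift in their median, which was 0.07. Of 13 tested, 3 were below 0, against 56.1% of all tested genes. Groups did not overlap in 0 with the 75-cone arrays lower (8.15% of all tested genes) and in 1 with those arrays higher (4.92%). Their marker sum was 649 to 704 in the 50-cone and 644 to 812 in the 75-cone mixture. The markers of vessels (Pecam1, Cldn5 and Cdh5) and of the pigment epithelium (Rpe65, Best1 and Ttr) were not above 2.83 in either mixture, and of 5 microglial markers 1 was. Vtn, vitronectin, stood in the list of vessel and pericyte genes and is also high in cones; it read 8.47, 8.37 and 8.76 against 7.78, 7.69 and 6.82, a difference of -1.10 ± 0.42.

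Most lists that belong to no single cell type lay near the median of all genes. The median was -0.02 over 31 genes of oxidative phosphorylation, 0.01 over 15 of glycolysis, -0.03 over 17 cytosolic ribosomal proteins, -0.06 over 20 immediate early genes and -0.08 over 11 heat shock genes. Members called were 0 in each of these lists. The 10 housekeeping genes had a lower median of -0.14, with 8 below 0 and 0 called. Actin, Actb, read 8.36, 7.99 and 8.16 in the 50-cone mixture and 7.14, 7.73 and 7.57 in the 75-cone mixture, with a difference of -0.69 ± 0.32 (limma adjusted p = 0.755). The cyclophilin gene Ppia, of the same list, went the other way, by 0.27 ± 0.12.

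To use more than single genes, cell-type genes were taken from the pure arrays, which took no part in either mixture. Cone-high and starburst-high genes were the genes limma called between pure cone and pure starburst arrays at log2 differences of 2 or more in size, 101 and 175 in number. Among the cone-high genes 91 had a 75-cone mean below the 50-cone mean. In 42 the groups did not overlap with the 75-cone arrays lower (41.6%, against 8.15% of all tested genes). In 0 they did not overlap in the stated direction, with those arrays higher, against 4.92% of all tested genes. Their median difference was -0.70, beside a stated median of 0.38. In 49 of the 101 the 95% interval left out the stated difference, against 7.47% of all tested genes. Against the 50-cone mean, the 3 arrays of the 75-cone mixture had medians of -0.50, -0.38 and -1.16 over these genes, so all 3 lay on the same side. Without the third array the median was -0.48, with 86 genes below 0 and 44 without overlap on the lower side (43.6%, against 13% of all tested genes).

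The 175 starburst-high genes had a median difference of 0.03 beside a stated median of -0.20, and 80 of them were below 0. Groups did not overlap in 9 with the 75-cone arrays lower (5.14%, against 8.15% of all tested genes). They did not overlap in 11 with those arrays higher, against 4.92% of all tested genes. The medians of the 3 arrays against the 50-cone mean were -0.08, 0.18 and -0.01. For these genes the stated difference is small, and the 95% interval left it out in 21 of 175, against 7.47% of all tested genes. Across the 276 cell-type genes the difference between the mixtures and the difference between pure cone and pure starburst arrays, which share no array, had a Pearson correlation of -0.62, and across all 12441 genes it was -0.14; genes are not independent replicates, and these values are descriptions.

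**Figure D3:**
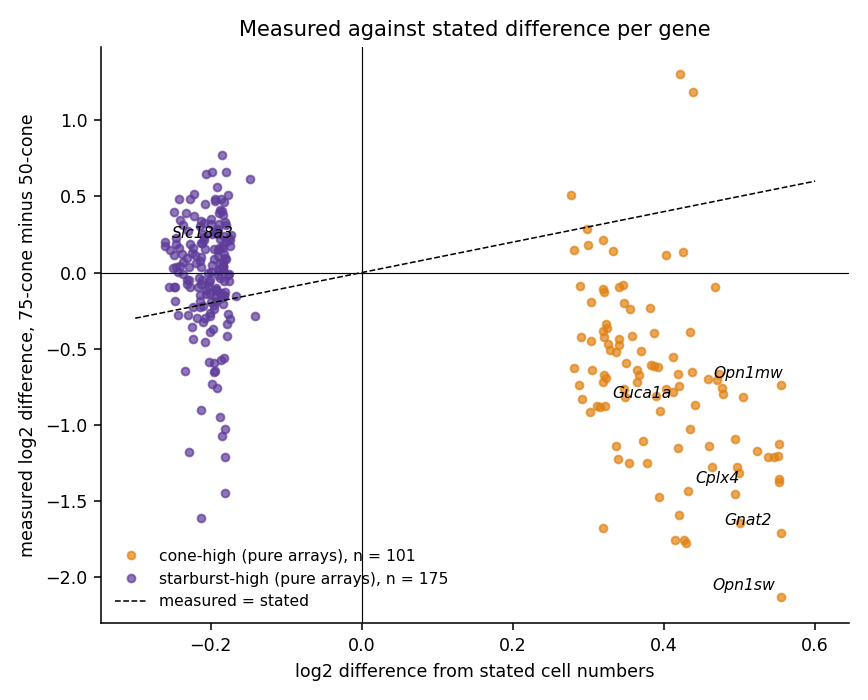
Measured log2 difference, 75-cone minus 50-cone (vertical axis), of each cell-type gene against the log2 difference that its pure means and the stated cell numbers give (horizontal axis), with a dashed line where both are equal. Of the 101 cone-high genes 91 lie below 0, on the opposite side from their stated values, while the 175 starburst-high genes scatter around a median of 0.03.

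Each array was then placed between the pure groups on the linear scale, with 0% at the pure starburst mean and 100% at the pure cone mean of each cell-type gene; the median over genes was taken. By cone-high genes the 50-cone arrays stood at 22.3, 18.4 and 18.2%, the 75-cone arrays at 8.01, 11.4 and 1.01%, and the 100-cone arrays at 42.8, 36.7 and 35.9%. Stated shares were 25, 37.5 and 50%. The 50-cone mean of 19.6 ± 2.34% (SD, n = 3) and the 75-cone mean of 6.81 ± 5.30% differed by -12.8 percentage points, with no overlap between the arrays. In a two-sided exact permutation test p was 0.1, the smallest that 3 against 3 arrays allow. Without the third 75-cone array the difference was -9.91 points.

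Pure starburst arrays stood at -1.0 to 1.39% on the same scale, so by this median the third 75-cone array lay within their range. Single genes on that array did not all do so: Opn1mw, Pde6h, Arr3 (5.75 against at most 5.20) and Mogat1 (4.35 against at most 3.56) read above every pure starburst array. The third array was also the lowest by cone-high genes of the 150-cone, 157-cone, 183-cone and pure cone groups, at 22.1, 13.2, 28.6 and 53.2%. In the 50-cone and 100-cone groups the third array lay next to the second. The third pure cone array sets part of the upper end of the scale. With the upper end taken from the other two pure cone arrays, the difference between the mixtures was -10.4 points. In the 75-cone mixture the third array did not have the high rod level of the third pure cone array, where Gnat1 read 10.41 against 7.28 here.

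By starburst-high genes the order was different. The 50-cone arrays stood at 19.6, 10.5 and 23.1% and the 75-cone arrays at 22.2, 5.88 and 22.7%, a difference of -0.84 points in the means (two-sided exact permutation p = 0.8). The groups overlapped throughout, and the 100-cone mean was 38.2%. The first and the third 75-cone array read 22.2 and 22.7% by starburst-high genes but 8.01 and 1.01% by cone-high genes. The second ran the other way, at 5.88 and 11.4%. On the 50-cone arrays the readings by starburst-high and cone-high genes were 19.6 and 22.3%, 10.5 and 18.4%, and 23.1 and 18.2%. Averaged over both sets, the mixtures stood at 18.7 ± 3.69% and 11.9 ± 3.22% (SD, n = 3), a difference of -6.83 points (two-sided exact permutation p = 0.2).

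**Figure D4:**
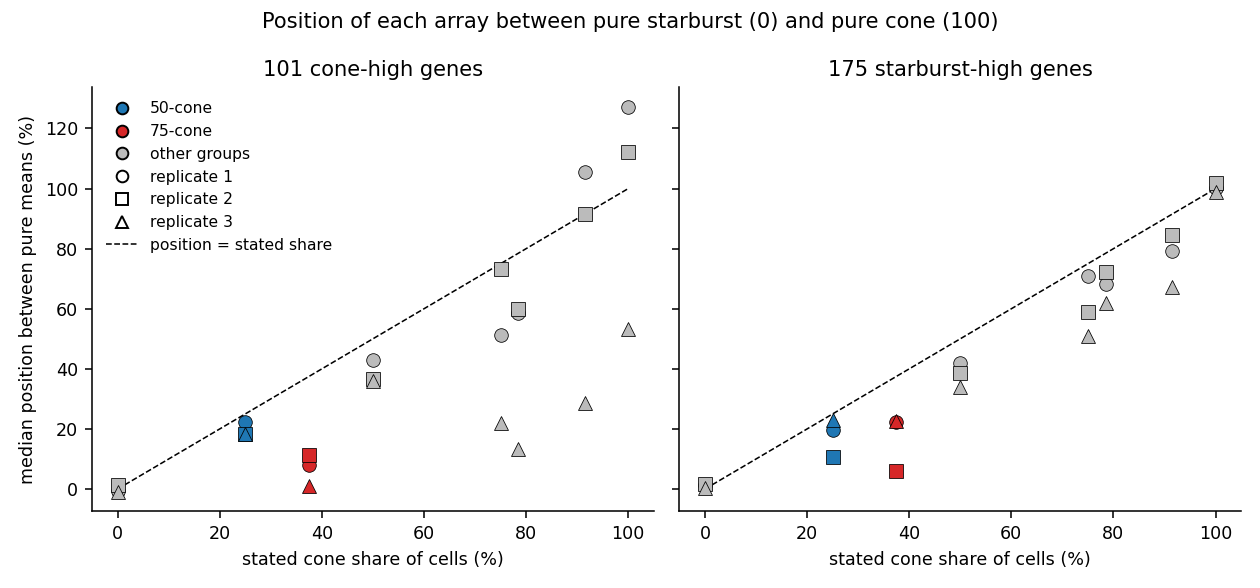
Position of each array between the pure starburst mean (0) and the pure cone mean (100) in percent (vertical axis) against its stated cone share (horizontal axis), by cone-high genes on the left and starburst-high genes on the right, with a dashed line where both are equal. On the left the 75-cone arrays, at 1.01 to 11.4%, lie below the 50-cone arrays, at 18.2 to 22.3%, and on the right both groups overlap.

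In the stated order the 75-cone mixture lies midway between the 50-cone and the 100-cone mixtures. Both neighbours are titration mixtures and it is not, so set and stated share cannot be told apart against either. The 75-cone mixture was also set against the mean of both. This comparison shares its 75-cone and 50-cone arrays with the one above. Limma called 1 gene lower (0.00804% of those tested) and 0 higher, with 565 lower (4.54%) and 431 higher (3.46%) at an unadjusted p under 0.05. The gene was Cplx4, lower by -1.83 ± 0.25 on the log2 scale (limma adjusted p = 0.0035). It read 7.57, 7.59 and 7.42 on the 100-cone arrays. For the markers the same contrast gave -1.12 ± 0.51 in Opn1mw, -1.11 ± 0.29 in Guca1a and -2.08 ± 0.72 in Gnat2, with limma adjusted p-values of 0.592, 0.229 and 0.430. The median over the cone-high genes was -0.99. All of these values include the third 75-cone array.

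Against the 100-cone mixture alone, limma called 2 genes higher (0.0161%) and 3 lower (0.0241%) at an adjusted p under 0.05. Cplx4 was lower by -2.23 ± 0.29 (limma adjusted p = 7.5e-04). The histone gene H2bc4 read 7.75, 7.36 and 7.54 in the 75-cone mixture and 9.40, 8.83 and 8.82 in the 100-cone mixture, a difference of -1.47 ± 0.23 (adjusted p = 0.0075), and its 50-cone arrays, at 8.28, 7.99 and 8.40, lay in between. Spaca5, a sperm acrosome gene, was lower by -1.67 ± 0.21, but read below 2.83 on all 75-cone arrays and between 3.23 and 4.18 on the 100-cone arrays. The genes called higher were Klf7, a transcription factor of the Kruppel-like family, at 1.92 ± 0.35 (adjusted p = 0.043), and dynamin 1, Dnm1, which pinches off synaptic vesicles, at 0.98 ± 0.17 (adjusted p = 0.033).

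Klf7 was also among the 12 genes with the smallest p on the higher side between the 75-cone and 50-cone mixtures. It read 3.85, 4.04 and 3.38 in the 50-cone mixture and 6.06, 4.93 and 4.86 in the 75-cone mixture. All 75-cone arrays were higher, by 1.53 ± 0.35 on average (limma adjusted p = 0.388). Pure starburst arrays read 4.42 to 4.51 and pure cone arrays 4.19 to 4.87, so both mixtures had arrays outside the range of the pure arrays. Rab3a, a GTPase of synaptic vesicles, read 6.38, 6.36 and 6.50 against 7.07, 7.50 and 6.92. The splicing factor Srsf10 read 4.80, 4.82 and 5.14 against 5.31, 6.46 and 6.17, and Edc3, an activator of mRNA decapping, 3.42, 3.33 and 3.03 against 5.26, 3.77 and 5.81. Of these 12 genes, 2 were starburst genes and 0 cone genes by the calls between the pure arrays (limma adjusted p under 0.05 and a log2 difference of at least 1).

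On the lower side, the 12 genes with the smallest p began with Cplx4 and Fscn2, a fascin that bundles actin in photoreceptors. Fscn2 read 6.11, 6.28 and 6.73 in the 50-cone mixture and 4.47, 4.74 and 4.25 in the 75-cone mixture. The difference of -1.89 ± 0.39 (limma adjusted p = 0.388) did not rest on the third array, since it was -1.77 without it. Fscn2 read 5.76, 5.92 and 4.68 on the pure starburst arrays, so all 75-cone arrays but the second lay below every pure starburst array. Sfxn1, a mitochondrial serine transporter and higher in starburst cells, read 7.86, 7.68 and 7.90 against 6.13, 6.73 and 6.23. The kinase gene Pdpk1 read 5.08, 4.84 and 5.08 against 3.29, 4.21 and 3.72, and the proteasome subunit Psmb5 11.31, 11.31 and 11.26 against 10.61, 10.79 and 10.95. Ephx1, an epoxide hydrolase, read 5.83, 3.65 and 5.26 against 2.62, 2.46 and 2.68, under the level for dim genes on every 75-cone array. Of these 12 genes, 2 were cone genes and 2 starburst genes by the calls between the pure arrays, and 8 were neither. In all 24 genes the mixtures did not overlap, which their choice by smallest p in this comparison largely fixed in advance. Of all tested genes 8.15% did not overlap with the 75-cone arrays lower and 4.92% with them higher. None of the 24 reached a limma adjusted p below 0.388.

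Taking every gene with an unadjusted limma p under 0.05, 40 of the 520 lower genes were called higher in pure cones by the same calls (7.69%, against 2.64% of all tested genes) and 39 higher in pure starburst cells (7.5%, against 5.79%). Among the 280 higher genes 3 were cone genes (1.07%) and 26 starburst genes (9.29%).

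The series holds 1 other pair in which an X mixture follows a titration mixture closely in stated share, the 157-cone and 150-cone mixtures, and these share no array with the pair above. There limma also called 0 genes, with 566 lower (4.55%) and 401 higher (3.22%) at an unadjusted p under 0.05. The median over the cone-high genes was -0.27, with 73 of 101 below 0 (52.2% of all tested genes were below 0), and the median over the cone phototransduction list was -0.22, with 15 of 19 below 0. Opn1mw differed by -0.03, Guca1a by -0.09, Gnat2 by -0.56 and Cplx4 by -0.46, none of them past the adjusted threshold. Over the starburst-high genes the median was -0.23 there, where the stated starburst number falls from 50 to 43. It was 0.03 here, beside a stated median of -0.20. Stated differences were not calculated for the other pair, so the medians of the pairs cannot be compared directly. The difference between the 2 pairs was tested as an interaction, and limma called 0 genes, with 367 lower (2.95%) and 279 higher (2.24%) at an unadjusted p under 0.05; for Cplx4 it was -0.97 (limma adjusted p = 0.915). Across all tested genes the 2 differences had a Pearson correlation of 0.16, given as a description.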

How the data were processed

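RNA of 200 sorted retinal cells per tube was hybridised to mouse gene arrays. Per the submitters' processing notes the authors summarised them by RMA in oligo (R 2.11.1; mm9 is the build named), and the deposited table is on the log2 scale; which arrays were normalized together is not given in the sources used here. The 6 arrays compared had medians of 2.81 to 2.84. The table has 22347 probe sets; 19446 with a single gene symbol were kept, and 735 with several symbols and 2166 without any were not. Entrez numbers matched 19368 probe sets, and 0 symbols changed. For 133 of the 19301 genes with several probe sets, the brightest was used. Tests ran on the 12441 genes that exceeded 2.83 (the median value of the table) on 3 or more arrays.

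All 27 arrays entered 1 limma fit (version 3.58.1, R 4.3.3; 18 residual and 3.42 prior degrees of freedom), tested on simulated data. Calls were made at a two-sided Benjamini-Hochberg adjusted p under 0.05, alone and with an absolute log2 difference of at least 1. No replicate block was used. The correlations of same-numbered 75-cone and 50-cone arrays, as deviations from their group means, were 0.01, 0.02 and 0.05.

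Of 381 genes in 26 lists, 343 had a value and 294 could be tested. The comparison and the lists were chosen with earlier results of these data known. Named genes were the 3 markers, Chat, Chrnb4 and Arc, the 12 smallest p-values in each direction (0 genes being called), the 8 largest differences in each direction between the pure groups, all tested members of cone phototransduction, up to 4 members of each other list with the largest differences, and the 6 smallest p-values in each direction against the mean of the neighbouring mixtures; the text gives those its results turn on. Genes called against the 100-cone mixture were named after their values were seen. Promoters are from RefSeq (GRCm38.p6), matched by symbol; no mm9 coordinates were used. Alternatives covered the block, the arrays fitted, the filter, trend, weights, quantile normalization, probe set rule, cell-type gene threshold and replicates left out; 2 were chosen after seeing the data, the counts without the third 75-cone array and the scale without the third pure cone array.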

Additional observations from a re-analysis of the deposited data

How the results depend on the processing

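Between the 75-cone and 50-cone mixtures, 0 genes were called in either direction with a replicate block, with the 6 arrays alone, with no filter or a stricter one, with an intensity trend, array weights, quantile normalization or the mean of probe sets. The smallest adjusted p lay between 0.0729 (replicate block) and 0.456 (no filter). With 1 array left out, calls ranged from 0 to 2 lower, 0 to 1 higher, and 0 to 2 with an absolute log2 difference of at least 1. Without the first 75-cone array these were Cplx4 (-1.86, limma adjusted p = 0.0042) and Ankrd7 (2.63, 0.0171). Without the second it was Rprl1 (2.99, 0.00925). Without the third 50-cone array Tdrd5 (0.84) and Dag1 (-0.87, both 0.0418) were among the calls, and without the second 1 lower gene was called.

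With the block, the cone-high median was -0.70. It was -1.13 over genes past log2 3 and -0.32 over genes past log2 1, and with arrays left out -0.83 to -0.48. The phototransduction median ranged from -0.99 to -0.27 and the starburst list median from -0.10, without the first 50-cone array, to 0.16. Against the mean of both neighbours, calls were 1 higher under the stricter filter, 2 lower and 1 higher with a trend, 4 lower and 1 higher with array weights, 3 lower and 3 higher after quantile normalization, and 1 to 2 lower and 0 to 5 higher with an array left out. That contrast could not be fitted on the 6 arrays alone.

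Signs turned with an array left out in Rcvrn (-0.666 to 0.0115), Cnga3 (-0.0467 to 0.15), Rgs9 (-0.23 to 0.0717), Rgs9bp (-0.0364 to 0.149), Gsto1 (-0.229 to 0.00648), Slc10a4 (-0.0311 to 0.25), Cmtm8 (-0.060 to 0.0722) and Arc (-0.116 to 0.056), and in Arc after quantile normalization (0.00070). Of 1047 values of 76 named genes under these settings, 1030 kept their sign and side of the threshold. Part of that count was fixed in advance, so it is no measure of robustness. The block, the trend, the filter and the fit on the 6 arrays cannot change a log2 difference. In the main fit 0 genes were past the threshold. Having 3 arrays a group limits what can be called, and values under 2.83 depend on background.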

Other observations

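Genes of peptide-bearing amacrine cells and ganglion cells, which neither sort aimed at, showed no common direction. Of 10 tested genes of glycinergic and peptide amacrine cells 4 had a difference below 0, with a median of 0.04, and of 8 ganglion cell genes 4 did, with a median of 0.01. The genes with the largest differences were low in level on most of these arrays. The substance P precursor Tac1 was not low in pure cones, at 7.69, 7.99 and 5.78, against 3.85 to 4.17 on the pure starburst arrays. Tac1 read 4.41, 3.26 and 2.53 in the 50-cone mixture and 3.40, 6.85 and 3.52 in the 75-cone mixture, so the second 75-cone array alone was high. On that array somatostatin, Sst, also read highest, at 4.21, with the other 75-cone arrays at 2.97 and 3.76 and the 50-cone arrays at 3.00, 3.20 and 3.04. The neurofilament gene Nefl read 2.48, 2.72 and 2.39 against 3.20, 2.73 and 3.12, and the growth cone gene Gap43 3.28, 3.83 and 3.92 against 3.97, 4.13 and 4.26. The peptide precursor Penk (-0.25) and the neurofilament gene Nefm (-0.32) went the other way. In limma the adjusted p-values were 0.872 for Tac1, 0.645 for Sst, 0.813 for Nefl and 0.821 for Gap43.

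The lysosomal gene Cd68 of macrophages read 2.91, 3.08 and 2.72 in the 50-cone mixture and 3.98, 4.58 and 2.86 in the 75-cone mixture (limma adjusted p = 0.599). The microglial receptor Cx3cr1 went the other way, at 3.40, 4.17 and 4.03 against 3.63, 3.40 and 3.69, and C1qa and C1qc read below 2.83 on every array of both. The median over 7 tested genes of microglia and macrophages was 0.06, with 2 below 0. Of the 2 sex-linked genes, whose median was -0.42, the X-linked Xist read 6.51 to 7.39 on all 6 arrays, and the Y-linked Eif2s3y 1.86, 2.63 and 3.49 in the 50-cone and 1.77 to 2.33 in the 75-cone mixture.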
